A study of Mus musculus with 15 samples.

Results

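The comparison set 5 libraries of the cS5Ahi mouse line against 5 of C57BL/6N wild type (WT), 10 of the 15 libraries in the series, chosen by the genotype and title in their labels. All libraries held polyadenylated RNA of untreated lymph node cells that a magnetic positive selection had enriched for CD8, from mice aged 15 weeks. Each WT library pooled the lymph nodes of 2 to 3 mice, whereas the labels do not say how many mice gave a cS5Ahi library, so a p-value reflects the spread from library to library, which may be technical. What is known of the study, beyond its labels, is that cS5Ahi is a line whose blood cells carry a transgene for a hyperactive form of STAT5A at a high level, driven by the Vav1 promoter, which is active in all blood cells and not in T cells alone. The remaining 5 libraries came from cS5Alo, the line with the lower level. They entered the same fit and are given where they show how far a level lay from both other groups.

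STAT5A and its close relative STAT5B are transcription factors that wait in the cytoplasm until a cytokine receptor brings JAK kinases together. The kinases phosphorylate STAT5, which then pairs, enters the nucleus and binds DNA at palindromic sites. In CD8 T cells the main cytokines upstream are interleukin 2, interleukin 7 and interleukin 15, which act through receptors with a shared gamma chain and support survival, division and the acquisition of killing functions. Naive CD8 T cells circulate through lymph nodes, while effector and memory cells carry granzymes, natural killer (NK) receptors and receptors for inflamed tissue.

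Sequencing gave 12177642 to 33948416 reads in genes per library. All cS5Ahi libraries were run on 1 flow cell and all WT libraries on another, so flow cell and genotype cannot be told apart in any result below. The lower line, cS5Alo, shared its flow cell with WT. Contrasts of cS5Ahi with cS5Alo therefore carry the same limit and are no independent check. Libraries differed in quality: reads outside genes made up 39.8% in WT 3, 40.8% in WT 4 and 36.8% in cS5Ahi 4, while all others of the series had 23.0 to 30.2%. The description of cS5Ahi 1 names cS5Alo, whereas its title and genotype give cS5Ahi, and its Stat5a level of 436 CPM lay within the range of the other cS5Ahi libraries. Levels are given as CPM, the usual unit of reads of a gene relative to library size, here with the size scaled by TMM factors. Correlations of log2 CPM ran from 0.935 to 0.972 among WT libraries and from 0.977 to 0.988 among cS5Ahi libraries.

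Cells of both genotypes carried the T cell and CD8 transcripts that the selection calls for. The 8 CD8 T cell markers summed to 7830 to 9910 CPM in WT and 8760 to 10900 CPM in cS5Ahi, and none of them was called by edgeR (2 had an unadjusted p under 0.05, and at most 1 was called higher and 1 lower in any setting tried, DESeq2 and voom among them). Cd8a stood at 2346 ± 172 CPM (WT) and 2449.8 ± 184 CPM (cS5Ahi) and Cd3e, a chain of the T cell receptor complex, at 1304 ± 129 CPM (WT) and 1150.2 ± 224 CPM (cS5Ahi) (mean ± SD, n = 5 for each group here and below). Other cells left traces that moved with genotype: 11 of 15 B cell markers, 9 of 12 dendritic cell markers and 5 of 9 salivary gland markers were called lower in cS5Ahi. The salivary gland calls rested on few libraries: 1 to 3 of the 5 were left without WT 1, WT 3, WT 4 or any cS5Ahi library other than cS5Ahi 4, and 0 without both WT 3 and WT 4. WT 5 stood apart with 84.7 CPM of Cd4, against 1.08 to 12.5 CPM in the other WT libraries. Gamma delta and innate-like T cell markers summed to 67.1 CPM in WT 5, to 3.44 to 20.1 CPM elsewhere in WT and to 21.1 to 50.7 CPM in cS5Ahi. Immature thymocyte markers summed to 95.7 CPM in WT 5, to 19.9 to 31.0 CPM elsewhere in WT and to 16.1 to 26.4 CPM in cS5Ahi. Their mean log2 level was 2.59 in WT 5 and higher, at 3.14, in WT 4. In bulk RNA, fewer cells of a type and less RNA per cell cannot be told apart.

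CD8-selected cells of the cS5Ahi line differed from WT in a broad set of genes for sensing cytokines, killing and migration. At a Benjamini-Hochberg adjusted p under 0.05, the quasi-likelihood test of edgeR called 1692 of 11979 genes, which is 14.1% of the genes tested, with 824 higher (6.88%) and 868 lower (7.25%). A change of 2-fold or more was fitted for 320 of the former and 530 of the latter. Scaled by library size alone, 603 genes were higher and 1177 lower. CPM ranges of the 5 WT and 5 cS5Ahi libraries did not overlap for 1252 genes, 10.5% of those tested. These percentages are the background against which the counts for gene lists below are to be read. Every adjusted p below comes from this fit unless another setting is named, and fold changes are log2 fold changes of cS5Ahi against WT with their standard error.

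**Figure D1:**
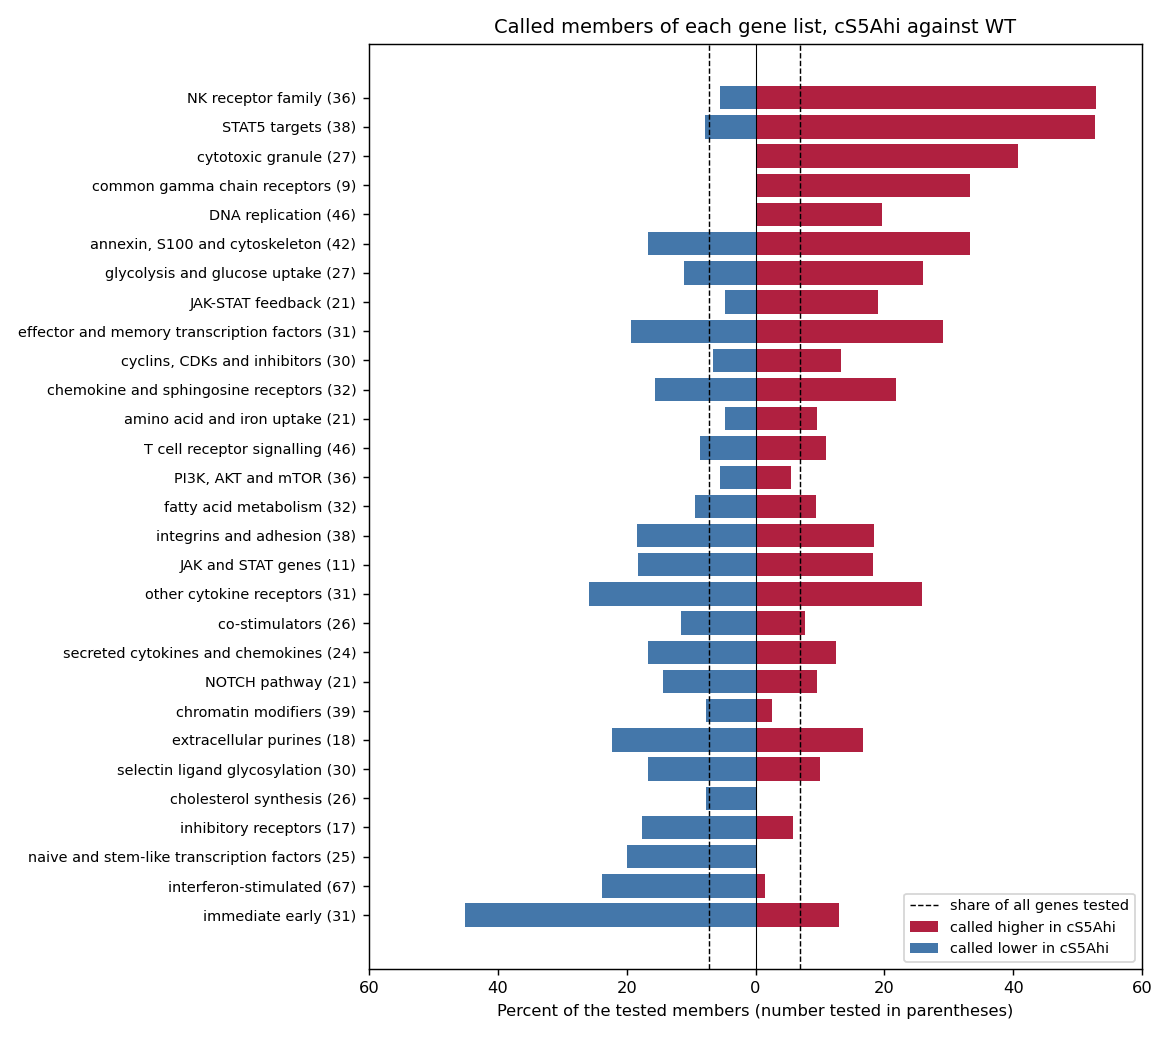
Percent of the tested members of each of the 29 gene lists that were called higher (right, red) or lower (left, blue) in cS5Ahi against WT; the number of members tested stands in parentheses and dashed lines mark the shares over all genes tested, 6.88% and 7.25%. The NK receptor, STAT5 target and cytotoxic granule lists reach furthest to the right and the immediate early list furthest to the left.

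Stat5a, the gene for which the line is named, was high in every cS5Ahi library. Its level was 90.2, 81.9, 71.4, 74.6 and 95.7 CPM in WT 1 to 5 and 436, 404, 509, 458 and 635 CPM in cS5Ahi 1 to 5. The lowest cS5Ahi library lay above the highest WT library by a wide margin, and cS5Ahi 5 was highest. The fold change was 2.56 ± 0.13 on the log2 scale (adjusted p = 1.62e-10). Reads of a transgene and of the mouse gene cannot be told apart in these counts. Stat5b, the close relative, had 129 ± 16.9 CPM (WT) and 121 ± 13.3 CPM (cS5Ahi) and was not called.

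Of 11 tested genes for JAK kinases and STAT factors, 2 were called higher and 2 lower, with a median fold change of -0.09 against 0 over all genes. Beside Stat5a, Stat4, which acts downstream of interleukin 12, went from 226 ± 39.1 to 301 ± 39.2 CPM (0.41 ± 0.14, adjusted p = 0.0482). Stat6, which acts downstream of interleukin 4, went from 178 ± 5.19 to 143 ± 14.3 CPM (-0.32 ± 0.10, adjusted p = 0.0322), and Stat2, a partner in interferon signalling, from 48.5 ± 4.56 to 37.98 ± 4.07 CPM (-0.35 ± 0.11, adjusted p = 0.0386). The shifts of these 3 genes were small and their calls were fragile. The call of Stat4 was lost without WT 1, WT 4, WT 5 or any single cS5Ahi library (adjusted p = 0.0544 to 0.123), that of Stat6 without WT 1, 2 or 4 or cS5Ahi 1, 2 or 4 (0.0501 to 0.101), and that of Stat2 without WT 1 or 5 or cS5Ahi 1, 3 or 4 (0.0582 to 0.117). Over all settings tried the adjusted p ranged from 0.0265 to 1 for Stat4, from 0.00429 to 1 for Stat6 and from 0.0108 to 1 for Stat2. Without WT 3, WT 4 and cS5Ahi 4 Stat5a alone was called on this list.

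Receptors of the cytokines that activate STAT5 were raised in part. Among 9 tested common gamma chain receptor genes 3 rose and the other 6 were not called (2 rose with the mean log2 level of the B cell markers as a covariate, called the B cell covariate below). Il2ra, the alpha chain that gives the interleukin 2 receptor its high affinity, was at 17.4, 11.5, 19.2, 12.5 and 12.8 CPM in WT 1 to 5 and 60.4, 61.1, 51.4, 70.2 and 68.7 CPM in cS5Ahi 1 to 5. Il2rb, the signalling beta chain shared by the receptors of interleukin 2 and interleukin 15, stood at 371, 337, 283, 241 and 392 CPM across WT and 812, 759.7, 813, 818 and 924 CPM across cS5Ahi, in library order. For both genes all cS5Ahi libraries were above all WT libraries. Their fold changes were 2.09 ± 0.14 (adjusted p = 1.23e-08) and 1.34 ± 0.14 (adjusted p = 1.8e-06), and cS5Alo, at 12.9 and 323 CPM, lay at the WT level. The same fit called 1035 genes between cS5Ahi and cS5Alo (8.64% of those tested), and both genes were among them (adjusted p = 6.97e-09 and 2.73e-06). In that contrast, too, genotype went with flow cell. The shared gamma chain gene Il2rg (1502 ± 233 CPM (WT) and 1615 ± 134 CPM (cS5Ahi)) and the interleukin 7 receptor gene Il7r (976 ± 311 CPM (WT) and 1066 ± 81.1 CPM (cS5Ahi)) were not called. Il4ra went from 96.8 ± 12.5 to 127 ± 15.98 CPM, a call lost without WT 1, 3 or 4 or cS5Ahi 5 (adjusted p = 0.0517 to 0.075; 0.00634 to 1 over all settings tried).

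Receptors for other cytokines moved both ways, with 8 of 31 higher and 8 lower (5 and 2 with the B cell covariate) and a median fold change of -0.20. The risers sense interleukin 12, interleukin 18, interleukin 10 and interferon. Il12rb2, the signalling chain of the interleukin 12 receptor, was at 4.28, 2.73, 3.18, 0.0794 and 5.81 CPM in WT 1 to 5 and 45.4, 33.6, 29.6, 37.7 and 36.6 CPM in cS5Ahi 1 to 5 (3.47 ± 0.42, adjusted p = 1.91e-05). WT 4 was nearly without it, and the remaining WT libraries also lay far below every cS5Ahi library. Both chains of the interleukin 18 receptor rose together. Il18rap, the accessory chain, had 22.1, 12.03, 9.04, 4.61 and 18.1 CPM across WT and 81.7, 64.6, 71.2, 69.5 and 88.3 CPM across cS5Ahi, in library order (2.50 ± 0.30, adjusted p = 1.86e-05). Il18r1, the binding chain, rose by 1.85 ± 0.12 (adjusted p = 6.6e-09). WT 4 and WT 3 were lowest for Il18rap, and the groups did not overlap for either chain. cS5Alo had 4.82 CPM of Il12rb2 and 20.8 CPM of Il18rap, and cS5Ahi differed from it in both (adjusted p = 0.000118 and 0.000455).

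Both chains of the interleukin 10 receptor rose as well. Il10ra went from 14.3 ± 1.66 to 34.4 ± 5.07 CPM (1.27 ± 0.14, adjusted p = 4.65e-06) and Il10rb from 88.9 ± 5.56 to 177 ± 11.2 CPM (0.99 ± 0.09, adjusted p = 5.24e-07). The chains of the interferon gamma receptor moved in opposite directions. Ifngr1, which binds the ligand, rose from 146 ± 47.3 to 267 ± 25.3 CPM (adjusted p = 0.00176), while Ifngr2, the signalling partner, fell from 49.2 ± 4.27 to 23.3 ± 3.88 CPM (adjusted p = 9.69e-06). Il6st, the gp130 chain used by interleukin 6, fell from 311 ± 36.7 to 189.8 ± 27.5 CPM (-0.71 ± 0.11, adjusted p = 0.000223). Csf2rb, a chain of the receptors for interleukin 3 and GM-CSF that is better known from myeloid cells, fell from 14.2 ± 7.18 to 2.02 ± 1.03 CPM (-2.81 ± 0.43, adjusted p = 0.000169). Its fold change shrank to -1.07 with the B cell covariate (adjusted p = 0.377; 7.49e-11 to 0.377 over all settings tried). Without WT 3, WT 4 and cS5Ahi 4 the list had 7 higher and 3 lower. Ifngr1 was not called with the covariate, and neither Ifngr1 nor Il6st was called against a fold of 1.5.

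**Figure D2:**
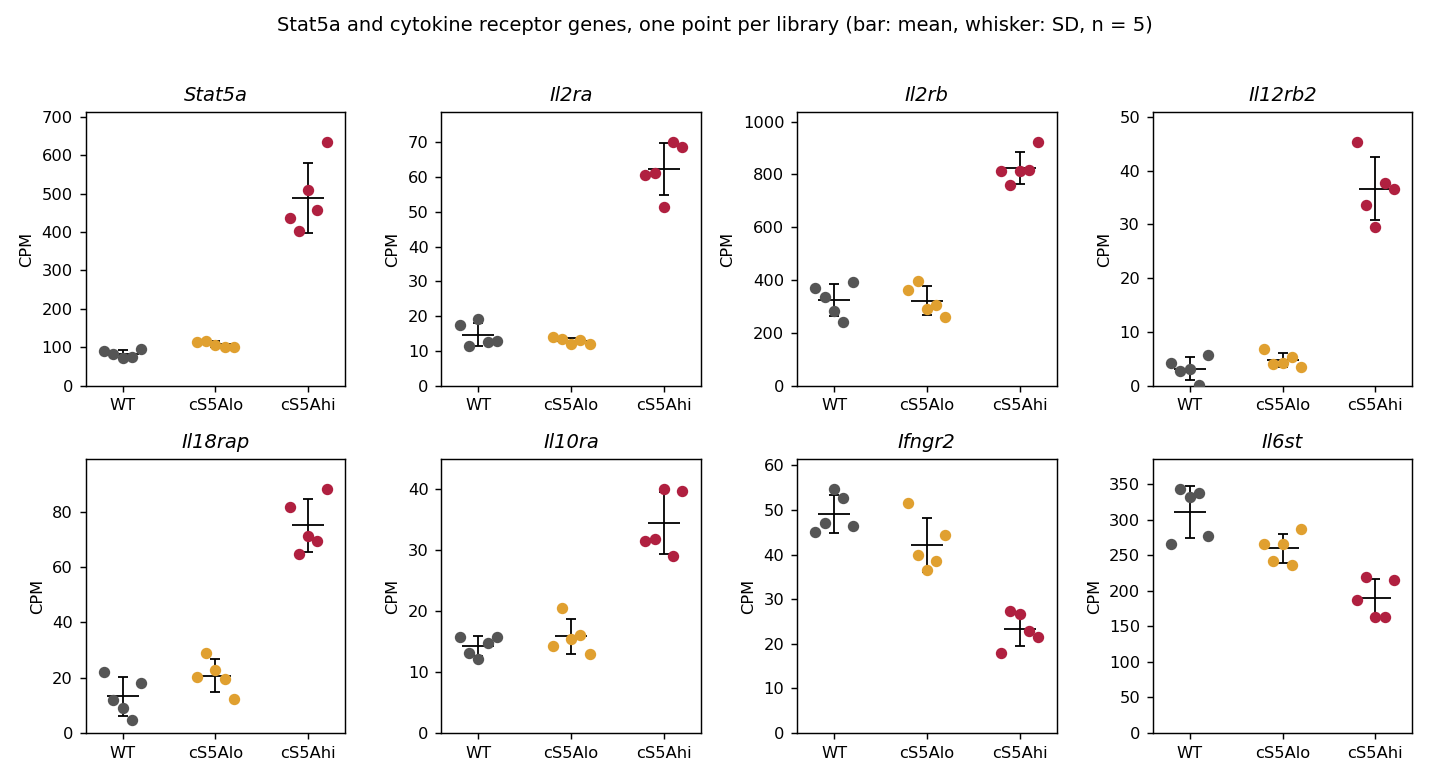
CPM of Stat5a and 7 cytokine receptor genes in each library (points), with the mean (bar) and SD (whisker) of 5 libraries per genotype; each panel has a linear axis from 0. For the first 6 genes all cS5Ahi points lie above all WT and cS5Alo points, and for Ifngr2 and Il6st all cS5Ahi points lie below them.

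STAT5 pairs are known to bind the palindrome TTCNNNGAA, which reads the same on both strands. Promoter windows of the receptor, feedback and STAT5 target genes that hold it are shown for the 5 called genes of smallest adjusted p, to set the letters beside the direction in which each gene moved. The letters are from RefSeq on GRCm38.p6, 250 bases before an annotated start, gene-oriented and 5′ to 3′, with matches in capitals. The counts themselves were made on mm9, which was not used for coordinates. Il18r1, Il12rb2, Ifnar2 and Ifng rose, and Bcl6, shown at both of its starts with a match, fell.
Il18r1, chr1:40465756-40466005, plus strand: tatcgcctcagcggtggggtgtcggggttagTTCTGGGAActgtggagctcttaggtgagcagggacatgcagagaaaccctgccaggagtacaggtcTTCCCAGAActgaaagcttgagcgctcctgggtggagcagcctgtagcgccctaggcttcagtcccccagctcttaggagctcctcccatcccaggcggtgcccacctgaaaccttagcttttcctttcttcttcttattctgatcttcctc
Il12rb2, chr6:67376189-67376438, minus strand: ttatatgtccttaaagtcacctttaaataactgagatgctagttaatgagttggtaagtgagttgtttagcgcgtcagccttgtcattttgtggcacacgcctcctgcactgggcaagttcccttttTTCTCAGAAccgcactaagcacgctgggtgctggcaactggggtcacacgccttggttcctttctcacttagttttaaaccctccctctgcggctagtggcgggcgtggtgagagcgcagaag
Bcl6, chr16:23988853-23989102, minus strand: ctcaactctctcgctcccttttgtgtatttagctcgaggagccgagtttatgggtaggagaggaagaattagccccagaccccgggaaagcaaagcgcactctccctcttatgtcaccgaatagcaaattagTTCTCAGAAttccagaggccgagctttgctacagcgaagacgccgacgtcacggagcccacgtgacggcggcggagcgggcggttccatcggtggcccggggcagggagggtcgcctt
Bcl6, chr16:23981284-23981533, minus strand: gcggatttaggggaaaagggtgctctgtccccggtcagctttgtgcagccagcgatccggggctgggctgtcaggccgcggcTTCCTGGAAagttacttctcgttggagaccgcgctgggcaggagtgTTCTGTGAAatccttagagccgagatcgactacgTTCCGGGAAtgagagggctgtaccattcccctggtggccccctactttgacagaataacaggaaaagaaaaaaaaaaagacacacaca
Ifnar2, chr16:91372533-91372782, plus strand: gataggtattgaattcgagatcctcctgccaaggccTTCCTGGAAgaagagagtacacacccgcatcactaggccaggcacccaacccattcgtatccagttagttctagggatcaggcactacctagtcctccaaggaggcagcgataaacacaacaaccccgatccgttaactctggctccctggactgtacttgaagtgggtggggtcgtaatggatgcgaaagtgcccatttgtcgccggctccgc
Ifng, chr10:118440796-118441045, plus strand: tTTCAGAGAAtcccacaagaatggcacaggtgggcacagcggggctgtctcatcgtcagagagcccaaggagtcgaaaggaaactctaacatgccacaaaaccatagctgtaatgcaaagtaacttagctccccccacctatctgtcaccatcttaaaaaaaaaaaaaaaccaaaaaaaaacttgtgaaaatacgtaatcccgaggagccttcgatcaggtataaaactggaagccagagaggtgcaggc

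Il18r1 held 2 matches, Il12rb2, Ifnar2 and Ifng 1 each, and the Bcl6 windows 1 and 3. Shares over larger sets of genes lay close together. The motif was found in 7.02% of all 32851 windows in the table, in 704 of 9594 matched genes tested (7.34%), in 49 of 678 matched genes called higher (7.23%) and in 48 of 687 called lower (6.99%). In the receptor, feedback and target lists it was found for 4 of 24 matched genes called higher and 3 of 9 called lower. Ifnar2, a chain of the receptor for type I interferons, rose from 104 ± 11.1 to 152 ± 9.99 CPM (0.55 ± 0.09), without a call with the B cell covariate or against a fold of 1.5. A match is a description of letters and not a binding site.

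Of 21 feedback regulators of JAK-STAT signalling 4 rose and 1 fell. Without WT 1, 2 or 3, without cS5Ahi 3 or 5 and with the B cell covariate 2 were higher. Cish, a SOCS family inhibitor and textbook STAT5 target, was at 8.75, 3.62, 8.61, 6.43 and 9.601 CPM in WT 1 to 5 and 13.7, 12.7, 21.8, 21.6 and 16.4 CPM in cS5Ahi 1 to 5 (1.22 ± 0.25, adjusted p = 0.00187). The groups did not overlap, although WT 2 alone was clearly low within WT. Ptpn2, a phosphatase that acts on STAT proteins, went from 105 ± 7.47 to 143 ± 8.79 CPM (adjusted p = 0.00209), a call lost with the B cell covariate and against a fold of 1.5. Usp18, which dampens interferon signalling, fell from 45.3 ± 3.39 to 25.4 ± 3.73 CPM (adjusted p = 0.000217) and was not called against a fold of 1.5.

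Of 38 tested genes known as STAT5 targets 20 rose and 3 fell, with a median fold change of 0.59 against 0 over all genes. Without WT 3, WT 4 and cS5Ahi 4 the counts were 14 and 2, with the B cell covariate 10 rose and 0 fell, and without WT 5 or cS5Ahi 1, 2 or 5 the falls were 1. The list overlaps others given here, since Il2ra, Il18r1, Cish, Gzmb, Fasl and Tbx21 stand on it too. Bcl2, which keeps lymphocytes alive, stood at 197, 232, 221, 170.2 and 228 CPM across WT and 639, 622, 542, 687 and 698 CPM across cS5Ahi, in library order. Every cS5Ahi library exceeded every WT library (1.60 ± 0.12, adjusted p = 1.78e-08). Pim1, a survival kinase, rose from 15.4 ± 3.13 to 43.6 ± 2.65 CPM (adjusted p = 1.8e-06). Bcl6, a repressor that opposes STAT5 in lymphocytes, fell from 51.7 ± 24.7 to 20.3 ± 1.31 CPM (-1.35 ± 0.22, adjusted p = 0.000314). WT 5 held 94.98 CPM of Bcl6 and the other WT libraries 34.1 to 47.2 CPM, all above the 18.3 to 21.96 CPM of cS5Ahi. With the B cell covariate Bcl6 had an adjusted p of 0.0516 (5.92e-08 to 0.0516 over all settings tried).

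Among transcription factor genes of effector and memory cells 9 of 31 rose and 6 fell (4 and 1 with the B cell covariate), and the median fold change was -0.06. Both T-box factors that drive cytotoxic programmes rose. Tbx21, which encodes T-bet, was at 12.4, 8.74, 7.41, 9.13 and 18.2 CPM in WT 1 to 5 and 52.7, 49.3, 60.02, 57.1 and 73.6 CPM in cS5Ahi 1 to 5. Eomes had 58.02, 63.02, 36.9, 39.5 and 61.4 CPM across WT and 150, 139, 146, 174 and 189.8 CPM across cS5Ahi. Neither gene overlapped between the groups, and WT 3 was the lowest WT library for both. The fold changes were 2.38 ± 0.21 (adjusted p = 3.34e-07) and 1.62 ± 0.15 (adjusted p = 5.24e-07). Against cS5Alo, at 16.6 and 69.8 CPM, the adjusted p was 9.49e-06 and 2.6e-05. Prdm1, which encodes BLIMP-1, a driver of terminal differentiation, rose from 5.14 ± 0.842 to 12.6 ± 0.928 CPM (1.28 ± 0.15), and Bhlhe40, a factor of tissue-resident and activated T cells, from 5.74 ± 1.94 to 12.6 ± 2.01 CPM (1.15 ± 0.20). Falls included Ikzf2, which encodes Helios (16.4 ± 2.85 CPM (WT) and 3.68 ± 2.19 CPM (cS5Ahi), -2.16 ± 0.35), and Irf4, induced through the T cell receptor (43.4 ± 8.91 CPM (WT) and 17.4 ± 4.79 CPM (cS5Ahi), -1.31 ± 0.18). Ikzf2 and Irf4 were not called with the B cell covariate (adjusted p = 0.1 and 0.0561). Their range over the settings tried was 5.85e-09 to 0.1 for Ikzf2 and 9.83e-11 to 0.0561 for Irf4.

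Of 25 transcription factor genes of naive and stem-like T cells 5 fell and the other 20 were not called (1 fell with the B cell covariate), against background shares of 7.25% lower and 6.88% higher. Btg1, which holds T cells in quiescence, fell from 554 ± 23.9 to 349.5 ± 24.7 CPM (-0.67 ± 0.09, adjusted p = 2.36e-05). Lef1, a partner of TCF1 in naive T cells, fell from 629 ± 91.9 to 365 ± 114 CPM (adjusted p = 0.0051), with overlapping groups. Both falls were smaller than 2-fold, neither gene was called against a fold of 1.5, and Lef1 was not called with the B cell covariate. Tcf7 itself, which encodes TCF1, had 1439 ± 175 CPM (WT) and 1346 ± 323 CPM (cS5Ahi) and was not called.

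Genes of cytotoxic granules and killing rose in 11 of 27 tested cases and were not called in the other 16 (5 rose with the B cell covariate), with a median fold change of 0.51. Gzmb, the protease granzyme B, was at 6.78, 2.62, 4.801, 1.59 and 3.67 CPM in WT 1 to 5 and 199, 103, 121, 117 and 82.3 CPM in cS5Ahi 1 to 5. Gzmm, another granzyme typical of innate-like killers, had 22.4, 6.76, 4.45, 2.38 and 21.1 CPM across WT and 137, 131, 232, 147 and 175 CPM across cS5Ahi. The death ligand gene Fasl had 3.49, 1.23, 2.12, 0 and 3.54 CPM across WT and 29.9, 24.05, 33.7, 31.7 and 27.2 CPM across cS5Ahi. In all 3 genes the lowest cS5Ahi library stood far above the highest WT library, and WT 4 was the lowest of WT. The 0 of Fasl in WT 4 allows up to 0.238 CPM, the level of 3 reads, for counting error only. Fold changes were 5.01 ± 0.32, 3.83 ± 0.52 and 3.79 ± 0.44 (adjusted p = 7.82e-09, 0.000166 and 1.21e-05). Reads shared with near-identical granzyme genes may have been lost in the counting, so Gzmb is uncertain in that respect.

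The pore-forming gene Prf1 moved less than the granzymes. It was at 43.6, 56.7, 46.5, 51.4 and 45.6 CPM across WT and 94.4, 79.7, 93.5, 70.6 and 92.7 CPM across cS5Ahi, with no overlap (0.82 ± 0.11, adjusted p = 4.62e-05). It was not called with the B cell covariate (fold change 0.61) or against a fold of 1.5 (adjusted p up to 0.099 over all settings tried). Ly6c2, a surface protein of memory CD8 T cells and of monocytes, rose from 626 ± 227 to 1510.2 ± 287 CPM (1.27 ± 0.20), and Plac8, a gene of effector cells, from 169 ± 39.4 to 427 ± 60.8 CPM (1.34 ± 0.17). Of 11 tested monocyte and macrophage markers Ly6c2 alone was called.

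Among 24 tested genes for secreted cytokines and chemokines 3 rose and 4 fell (2 and 0 with the B cell covariate). The chemokine gene Ccl5, stored by memory CD8 T cells, was at 601, 139, 166, 152 and 445 CPM in WT 1 to 5 and 2498, 1756, 2536, 4686 and 2781 CPM in cS5Ahi 1 to 5. WT 1 and WT 5 were high within WT, cS5Ahi 4 was highest of all, and the groups did not overlap (3.25 ± 0.42, adjusted p = 6.01e-05). Ifng, the effector cytokine interferon gamma, had 0.921, 1.34, 0.141, 0.159 and 0.453 CPM across WT and 6.93, 2.82, 5.08, 4.05 and 4.91 CPM across cS5Ahi (2.89 ± 0.55, adjusted p = 0.00114). Csf2, which encodes GM-CSF, went from 0.0398 ± 0.0405 to 1.198 ± 0.7699 CPM (adjusted p = 0.000177), with 0, 0.0374, 0, 0.0794 and 0.0824 CPM in WT 1 to 5. Both cytokine transcripts stayed below 10 CPM in every library, and Csf2 was close to 0 in WT. Ifng was not called with the B cell covariate (fold change 1.74, adjusted p = 0.375; 1.38e-06 to 0.375 over all settings tried). Cxcl16, a chemokine also made by antigen-presenting cells, fell from 17.6 ± 9.56 to 2.43 ± 1.46 CPM (-2.85 ± 0.49), and its fold change was -0.49 with the covariate (adjusted p = 0.815; 1.85e-06 to 0.815 over all settings tried).

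**Figure D3:**
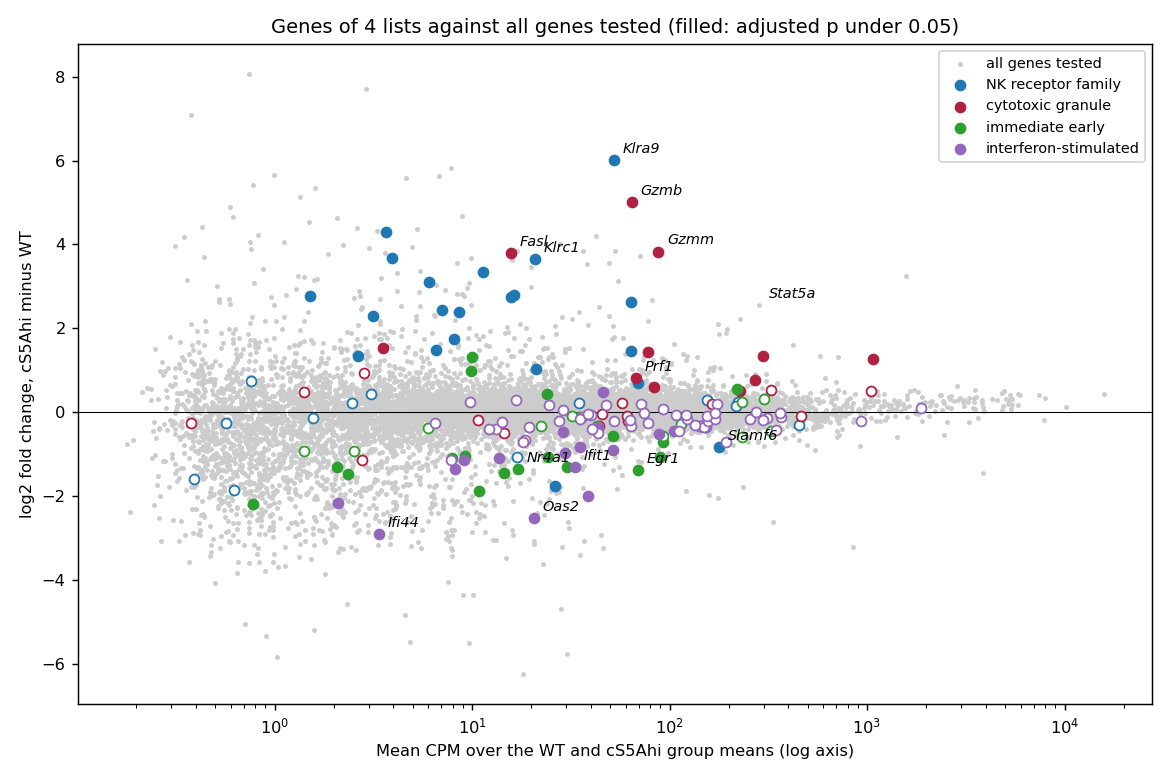
Log2 fold change of cS5Ahi against WT (vertical axis) by the mean CPM of the 2 group means (horizontal log axis), for all 11979 genes tested (grey) and the members of 4 lists (colours; filled where the adjusted p is under 0.05). NK receptor and cytotoxic granule genes lie mostly above 0, and called immediate early and interferon-stimulated genes mostly below it.

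NK receptor genes were the list with the largest share of risers. Of 36 tested members 19 rose and 2 fell, the median fold change was 0.89, and the counts were 19 and 1 without WT 3, WT 4 and cS5Ahi 4 and 12 and 1 with the B cell covariate. Klra9, an entry of the Ly49 family that also holds accessions of Klra8, was at 3.29, 0.7098, 0.918, 1.11 and 1.98 CPM in WT 1 to 5 and 86.7, 45.4, 109, 195 and 77.1 CPM in cS5Ahi 1 to 5. Klrc1, which encodes the inhibitory receptor NKG2A, had 3.62, 2.503, 4.02, 1.59 and 3.63 CPM across WT and 60.6, 30.8, 34.6, 38.5 and 28.02 CPM across cS5Ahi. The groups were far apart for both genes, cS5Ahi 4 was highest for Klra9 and cS5Ahi 1 for Klrc1. The fold changes were 6.01 ± 0.42 and 3.64 ± 0.30 (adjusted p = 3.43e-08 and 1.08e-07). Klre1, a partner in receptor pairs of NK cells, rose from 4.03 ± 1.98 to 28.8 ± 9.77 CPM (2.80 ± 0.33). Klrb1c, which encodes NK1.1, rose from 2.03 ± 2.36 to 20.6 ± 8.81 CPM (3.35 ± 0.62). Without WT 1, the WT library with the most Klrb1c (5.85 CPM), its WT mean was 1.08 CPM and its fold change 4.19, and with the B cell covariate it was not called. Slamf6, a receptor kept by less differentiated T cells, fell from 227 ± 18.3 to 128 ± 21.6 CPM (-0.82 ± 0.12, adjusted p = 5.99e-05) and was not called against a fold of 1.5. Ly49 genes are near-identical, so their separate values are uncertain.

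NK cell markers were read beside this list. Of 8 tested, 3 were called higher, Klrc2, Klrb1c and Eomes, and 1 lower, Fcer1g (0 lower without WT 3 and WT 4). The 8 markers summed to 230 to 412 CPM in WT and 419 to 593 CPM in cS5Ahi. Eomes, with means of 51.8 CPM (WT) and 159.8 CPM (cS5Ahi), was part of that sum. The mean log2 level of the markers overlapped, at 1.68 to 3.71 in WT and 2.97 to 4.23 in cS5Ahi. Ncr1, which encodes NKp46 and defines NK cells, was at 1.25, 0, 2.12, 0.476 and 1.03 CPM across WT and 0.0921, 0.328, 0.669, 0.0909 and 0.1605 CPM across cS5Ahi, thus near 0 in both. It was not called with all libraries (adjusted p = 0.136), and without WT 2 it was called lower in cS5Ahi (fold change -2.19, adjusted p = 0.0223; 0.0223 to 0.893 over all settings tried).

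Receptors that steer migration changed in both directions. Of 32 chemokine and sphingosine receptor genes 7 rose and 5 fell (5 and 1 with the B cell covariate). The 5 falls were 2 without cS5Ahi 1 or cS5Ahi 5, 3 without cS5Ahi 3 and 2 without WT 3, WT 4 and cS5Ahi 4. S1pr5, a sphingosine 1-phosphate receptor of cells that leave for the blood, was at 0.395, 0.299, 0, 0 and 0.494 CPM in WT 1 to 5 and 14.4, 10.9, 16.5, 16.4 and 18.8 CPM in cS5Ahi 1 to 5. The values of 0 in WT 3 and WT 4 allow up to 0.212 and 0.238 CPM, and S1pr5 was nearly silent in all WT libraries (5.82 ± 0.44, adjusted p = 3.29e-08). Ccr2, a receptor for monocyte chemoattractants, had 9.47, 4.78, 8.26, 5.95 and 5.97 CPM across WT and 108, 105, 98.3, 105 and 78.2 CPM across cS5Ahi (3.85 ± 0.18). All WT libraries had little Ccr2 beside the lowest cS5Ahi library, which was cS5Ahi 5. Cxcr3, which guides cells to interferon-induced chemokines, rose from 81.9 ± 43.5 to 305 ± 18.9 CPM (1.90 ± 0.27) and Gpr15, a homing receptor for the large intestine, from 6.01 ± 4.07 to 70.003 ± 15.6 CPM (3.52 ± 0.43). Adjusted p was 6.12e-11 for Ccr2, 7.98e-05 for Cxcr3 and 2.6e-05 for Gpr15.

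The receptor gene Ccr9, which directs cells to the small intestine, fell from 285 ± 49.5 to 69.02 ± 19.3 CPM (-2.04 ± 0.17, adjusted p = 1.05e-07). Ccr7, a lymph node homing receptor of naive cells, had 604 ± 152 CPM (WT) and 479.8 ± 59.7 CPM (cS5Ahi). S1pr1, the receptor for egress into lymph, had 766 ± 57.1 CPM (WT) and 698 ± 60.5 CPM (cS5Ahi). Neither gene was called with all libraries (adjusted p = 0.154 and 0.399). Ccr7 was called lower without WT 3 and WT 4 (0.027 to 1 over all settings tried).

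Integrins and other adhesion genes divided evenly, with 7 of 38 higher and 7 lower (4 and 2 with the B cell covariate) and a median fold change of -0.02. Itgae, which encodes CD103, the integrin that binds epithelium, was at 179, 234, 172, 187 and 176 CPM in WT 1 to 5 and 51.3, 67.5, 53.95, 41.1 and 42.3 CPM in cS5Ahi 1 to 5. WT 2 was high within WT and every cS5Ahi library was far below the lowest WT library (-1.89 ± 0.13, adjusted p = 1.69e-08). Itgb1, the beta chain of receptors for matrix and VCAM-1, rose from 79.1 ± 6.53 to 198 ± 15.8 CPM (1.32 ± 0.09), and Itgb3, a beta chain that pairs with the alpha V chain, from 11.2 ± 3.47 to 52.95 ± 10.99 CPM (2.23 ± 0.22). Itga4, a partner of the beta 1 and beta 7 chains, fell from 709.6 ± 181 to 377 ± 105 CPM (adjusted p = 0.00417), but was not called with the B cell covariate or against a fold of 1.5. Cd44, the classic marker of antigen-experienced T cells, stood at 119, 99.7, 114, 119 and 87.6 CPM across WT and 225, 237, 194, 268 and 217 CPM across cS5Ahi (1.08 ± 0.11, adjusted p = 1.25e-06). The groups were well apart for Cd44. The tetraspanin gene Cd9 fell from 35.9 ± 6.71 to 6.73 ± 2.23 CPM (-2.41 ± 0.19, adjusted p = 5.66e-08). Cd24a, present on immature T cells and on B cells, fell from 17.5 ± 8.44 to 3.35 ± 1.27 CPM, and its fold change went from -2.39 ± 0.33 to -1.23 with the B cell covariate, without a call. Among 30 glycosylation genes that build selectin ligands 3 rose and 5 fell (2 and 1 with the covariate), and St3gal6, a sialyltransferase of that pathway, rose from 62.9 ± 10.8 to 139.7 ± 33.6 CPM (1.15 ± 0.15, adjusted p = 2.9e-05).

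Genes of the cytoskeleton, annexins and S100 proteins included 14 risers and 7 falls among 42 tested (8 and 2 with the B cell covariate). S100a6, a calcium-binding protein of memory and effector cells, was at 18.7, 3.92, 6.92, 8.02 and 12.6 CPM in WT 1 to 5 and 129.9, 106, 187, 107 and 129 CPM in cS5Ahi 1 to 5. WT 2 was lowest, and no WT library came near the cS5Ahi range (3.72 ± 0.34, adjusted p = 6.19e-07). The motor gene Myo6 rose from 4.41 ± 1.14 to 80.7 ± 7.54 CPM (4.20 ± 0.16), the galectin gene Lgals1 from 80.3 ± 18.9 to 376 ± 80.8 CPM (2.23 ± 0.17) and Ahnak, a giant scaffold protein, from 407 ± 65.1 to 1016 ± 219 CPM (1.32 ± 0.16). Cnn3, which encodes the actin-binding calponin 3, fell from 56.9 ± 10.4 to 16.2 ± 2.65 CPM (-1.81 ± 0.13, adjusted p = 1.98e-08).

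In the list for T cell receptor signalling 19.6% of the tested members were called, against 14.1% of all genes tested. Of 46 tested members 5 rose and 4 fell (against background shares of 6.88% and 7.25%), and without WT 3 and WT 4 the counts were 0 and 4. With the B cell covariate they were 0 and 1, and 3 rose without WT 1, 3, 4 or 5 or cS5Ahi 1, 2 or 5. Trat1, an adaptor that stabilises the T cell receptor complex, was at 11.4, 11.02, 15.7, 17.1 and 14.998 CPM in WT 1 to 5 and 1.23, 1.83, 1.47, 2.77 and 1.99 CPM in cS5Ahi 1 to 5, with a wide gap between the groups (-2.92 ± 0.21, adjusted p = 1.98e-08). Of 26 co-stimulator genes 2 rose and 3 fell (4 rose without WT 5). Tnfsf8, which encodes the CD30 ligand, rose from 69.4 ± 14.3 to 176 ± 9.596 CPM (1.35 ± 0.13, adjusted p = 6.35e-07). Of 17 inhibitory receptor genes and genes of exhausted cells 1 rose and 3 fell (5 fell without WT 2 or WT 4). Lair1, a collagen receptor that inhibits lymphocytes, rose from 11.9 ± 3.86 to 34.1 ± 2.84 CPM (1.52 ± 0.18, adjusted p = 1.09e-05). Tox, a factor of exhausted T cells, fell from 114 ± 23.8 to 61.7 ± 14.4 CPM and the surface ligand gene Cd200 from 15.6 ± 7.405 to 3.65 ± 1.89 CPM. Neither was called with the B cell covariate. The fold change of Tox kept its size with it (-0.885 and -0.889), while that of Cd200 went from -2.091 to -1.035.

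Of 18 tested genes that handle extracellular purines 3 rose, 4 fell and 11 were not called. Entpd1, which encodes CD39, the enzyme that degrades extracellular ATP, was at 2.04, 2.02, 2.401, 3.18 and 2.35 CPM in WT 1 to 5 and 26.97, 26.6, 33.04, 29.5 and 31.3 CPM in cS5Ahi 1 to 5 (3.63 ± 0.18, adjusted p = 1.18e-10). Nt5e, which encodes CD73, the next enzyme and source of adenosine, rose from 49.6 ± 6.297 to 94.9 ± 4.99 CPM (0.93 ± 0.12, adjusted p = 2.74e-05). P2rx7, the ATP-gated channel whose opening can kill T cells, had 7.43, 5.19, 7.63, 4.92 and 7.21 CPM across WT and 1.07, 2.26, 1.29, 1.77 and 2.18 CPM across cS5Ahi (-1.91 ± 0.25, adjusted p = 3.07e-05). Art2a and Art2b, near-identical genes of a family of ADP-ribosylating enzymes, fell from 13.1 ± 3.78 to 1.61 ± 0.659 CPM and from 22.7 ± 6.81 to 7.15 ± 1.02 CPM. In none of these 5 genes did WT and cS5Ahi overlap. The fold changes of the Art2 genes were -3.02 ± 0.27 and -1.66 ± 0.19 (adjusted p = 2.47e-07 and 6.89e-06), with the reservation that reads shared between the copies may have been lost. All 5 genes were called against cS5Alo too (adjusted p = 3.78e-10, 0.00233, 0.000486, 7.32e-06 and 5.42e-05). The other calls of the list were smaller. P2rx4, another ATP-gated channel, fell from 16.4 ± 1.88 to 9.54 ± 0.7196 CPM (-0.79 ± 0.13), without a call with the B cell covariate or against a fold of 1.5. Slc29a1, a nucleoside transporter, rose from 55.5 ± 11.01 to 73.2 ± 7.701 CPM (adjusted p = 0.045), a call that leaving out WT 2, WT 3, WT 4 or 1 of the cS5Ahi libraries ended (0.0596 to 0.116; 0.0163 to 1 over all settings tried).

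Immediate early genes, which respond within minutes to receptor signals, fell in 14 of 31 tested cases and rose in 4, with a median fold change of -0.60. Without WT 3, WT 4 and cS5Ahi 4 the counts were 11 lower and 1 higher, and with the B cell covariate 4 lower and 0 higher. The number of risers was 1 or 2 without WT 1, 2 or 4 or cS5Ahi 1, 4 or 5. Egr1, a transcription factor induced through the T cell receptor, was at 97.6, 78.4, 103, 94.7 and 125 CPM in WT 1 to 5 and 31.5, 50.1, 25.1, 50.6 and 34.6 CPM in cS5Ahi 1 to 5. The groups did not overlap, and cS5Ahi 2 and 4 were higher than the other cS5Ahi libraries (-1.38 ± 0.19, adjusted p = 4.62e-05). Nr4a1, which encodes NUR77, a reporter of T cell receptor strength, fell from 24.5 ± 4.305 to 9.604 ± 3.59 CPM (-1.36 ± 0.20, adjusted p = 0.000116). Levels in cS5Alo lay between those of the other groups, at 63.5 CPM for Egr1 and 14.96 CPM for Nr4a1, and cS5Ahi against cS5Alo had an adjusted p of 0.0179 and 0.0536. The stress gene Gadd45b fell from 17.02 ± 7.96 to 4.61 ± 1.33 CPM, and its fold change of -1.87 ± 0.28 became -0.84 with the covariate (adjusted p = 0.404; 8.9e-10 to 0.404 over all settings tried).

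Of 67 tested genes induced by interferons 16 fell and 1 rose, with a median fold change of -0.26. Without WT 3, WT 4 and cS5Ahi 4 the number of falls was again 16, and with the B cell covariate it was 6. Oas2, an enzyme that senses double-stranded RNA, was at 29.5, 36.8, 47.8, 31.6 and 29.5 CPM in WT 1 to 5 and 4.82, 7.896, 6.06, 7.501 and 4.08 CPM in cS5Ahi 1 to 5 (-2.53 ± 0.27, adjusted p = 3.58e-06). All cS5Ahi libraries were well below all WT libraries. Ifi27l2a fell from 61.7 ± 20.3 to 15.5 ± 2.66 CPM (-1.99 ± 0.22), Ifi44 from 5.97 ± 3.49 to 0.783 ± 0.412 CPM (-2.91 ± 0.57) and Ifit1, which binds foreign RNA, from 47.3 ± 17.3 to 19.1 ± 4.04 CPM (-1.31 ± 0.29, not called against a fold of 1.5).

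The lists for cyclins, DNA replication and glycolysis had 20%, 19.6% and 37% of their tested members called, against 14.1% of all genes tested. Of 30 genes for cyclins, their kinases and inhibitors 4 rose and 2 fell (8 rose without WT 5, 1 rose with the B cell covariate, and 1 fell without WT 3, 4 or 5 or cS5Ahi 1, 2 or 5). Cdk6, a kinase of the G1 phase, was at 14.4, 18.2, 17.9, 10.2 and 18.9 CPM in WT 1 to 5 and 47.4, 40.2, 40.5, 58.9 and 45.1 CPM in cS5Ahi 1 to 5, without overlap (1.54 ± 0.17, adjusted p = 2.78e-06). Wee1, which restrains entry into mitosis, rose from 7.19 ± 1.41 to 16.8 ± 2.66 CPM (1.22 ± 0.20) and was not called with the B cell covariate. Of 46 DNA replication genes 9 rose and the other 37 were not called, with a median fold change of 0.31. Without WT 3 and WT 4, 3 rose, without WT 5, 15 rose, and with the covariate no call was left. Glycolysis genes rose in 7 of 27 cases and fell in 3, or 4 and 1 without WT 3 and WT 4 and 0 and 0 with the covariate. The fall of the lactate dehydrogenase gene Ldhb, from 13.2 ± 13.4 to 2.34 ± 0.435 CPM, rested in size on WT 5, which held 37.001 CPM. Without WT 5 the WT mean was 7.31 CPM and the fold change -1.64 in place of -2.51 ± 0.43 (adjusted p without WT 5 = 3.49e-05), and with the covariate Ldhb was not called (0.0711; 9.6e-09 to 0.0711 over all settings tried). Tfrc, the transferrin receptor that imports iron, rose from 42.7 ± 6.92 to 70.3 ± 9.86 CPM (adjusted p = 0.000627) and was not called with the covariate or against a fold of 1.5.

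The other lists had called shares on both sides of the 14.1% of all genes tested. Those for cholesterol synthesis (7.69%), chromatin modifiers (10.3%) and PI3K, AKT and mTOR (11.1%) were below it. Amino acid and iron uptake had 14.3%, fatty acid metabolism 18.8% and the NOTCH pathway 23.8%. Higher and lower calls numbered 0 and 2 of 26 for cholesterol synthesis, 3 and 3 of 32 for fatty acid metabolism, 2 and 1 of 21 for amino acid and iron uptake, 2 and 2 of 36 for the PI3K, AKT and mTOR pathway and 1 and 3 of 39 for chromatin modifiers. The NOTCH pathway had 2 and 3 of 21. Leaving out 1 library moved each of these counts by at most 2, and with the B cell covariate 1 chromatin modifier was the sole call left on these 6 lists. Nrarp, a feedback gene of the NOTCH pathway, rose from 6.29 ± 2.58 to 24.001 ± 1.83 CPM (1.92 ± 0.26, adjusted p = 4.42e-05). Its adjusted p was 0.0522 when the B cell covariate was added (9.4e-12 to 0.0522 over all settings tried).

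**Figure D4:**
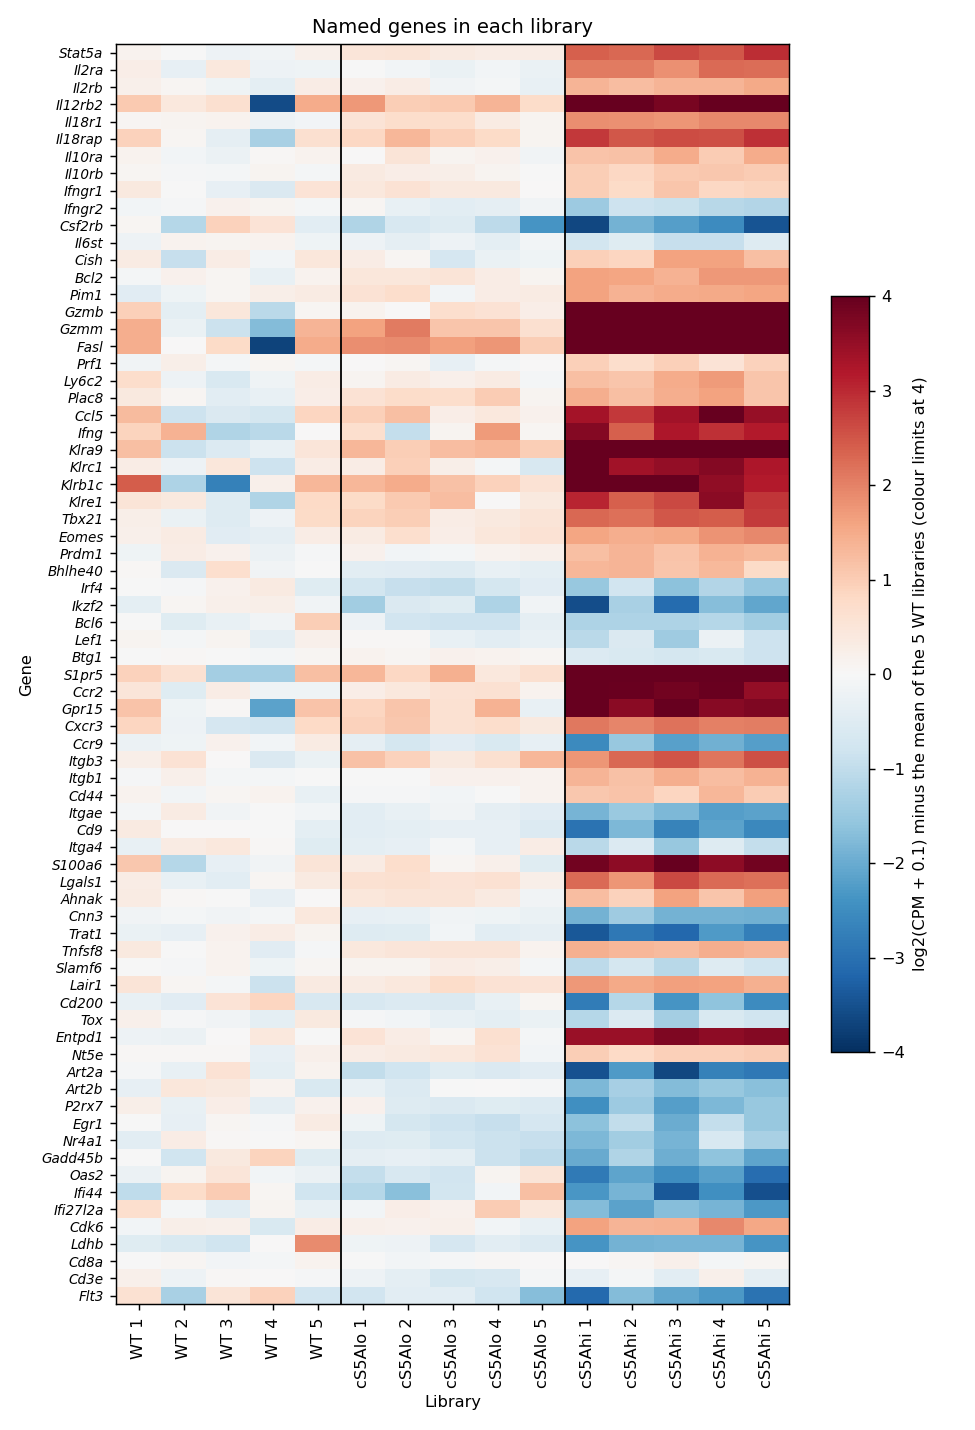
Levels of 73 named genes (rows) in the 15 libraries (columns) as log2(CPM + 0.1) minus the mean of the 5 WT libraries, with colour limits at 4 in either direction. The cS5Ahi columns are red for the granzymes, NK receptors and tissue-homing receptors and blue for Art2a, Trat1, Cd9 and Oas2, the cS5Alo columns are pale for most genes, and WT 4 is low for Il12rb2, Gzmm and Fasl.

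The 12 largest rises, taken from genes with at least 10 CPM in 1 group and no overlap, included 4 that belong to none of the lists, Tafa3, Drc1, Aqp9 and Tmem37. The water and glycerol channel gene Aqp9 was at 7.04, 5.87, 2.75, 0.953 and 6.51 CPM in WT 1 to 5 and 79.4, 61.3, 62.5, 67.4 and 72.1 CPM in cS5Ahi 1 to 5 (3.85 ± 0.32, adjusted p = 1.72e-07). Drc1, better known from the axoneme of cilia, rose from 3.196 ± 2.53 to 52.4 ± 12.2 CPM (4.00 ± 0.45), and Tmem37, a membrane protein gene, from 2.19 ± 1.78 to 31.5 ± 8.95 CPM (3.84 ± 0.51). Each kept its call with the B cell covariate, with fold changes of 3.39, 3.64 and 4.62. Map6 of the cytoskeleton list, which stabilises microtubules, rose from 0.301 ± 0.258 to 13.3 ± 6.05 CPM (5.62 ± 0.54, adjusted p = 8.33e-07). Tafa3, a secreted protein gene, ranged from 0 to 1.52 CPM in WT and from 14.5 to 19.05 CPM in cS5Ahi (4.68 ± 0.46, adjusted p = 1e-06). Both were nearly silent in WT, and without WT 5 the WT mean of Tafa3 was 0.4003 CPM and its fold change 5.40.

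The 12 largest falls began with transcripts that varied widely among WT libraries. Glycam1, a mucin of the vessels through which lymphocytes enter lymph nodes, was at 27.5, 18.8, 134, 67.1 and 23.9 CPM in WT 1 to 5 and 1.56, 0.557, 0.981, 4.36 and 3.02 CPM in cS5Ahi 1 to 5 (-4.70 ± 0.76, adjusted p = 0.000885). WT 3 was highest, and without it the fold change was -4.06. Of the salivary gland markers, Wfdc12 had 21.5, 5.16, 13.9, 51.1 and 4.203 CPM across WT, Dcpp1 11.7, 4.18, 6.85, 59.3 and 3.91 CPM and Klk1 9.34, 4.93, 4.73, 47.4 and 4.45 CPM, with WT 4 highest in each, against 0.307 to 2.32, 0.245 to 2.0003 and 0.245 to 1.73 CPM in cS5Ahi. Their fold changes were -4.37 ± 1.29, -4.35 ± 1.30 and -4.05 ± 1.03 (adjusted p = 0.0399, 0.0415 and 0.0176), and -3.59, -2.98 and -2.78 without WT 4 (0.0852, 0.101 and 0.0265). The calls of Wfdc12 and Dcpp1 were also lost without WT 1 or 3 or cS5Ahi 1, 2, 3 or 5, that of Dcpp1 without cS5Ahi 4 and that of Klk1 without cS5Ahi 1. The adjusted p over all settings tried was 0.000278 to 0.852, 0.000621 to 0.886 and 0.000114 to 0.715. Insm1, a transcription factor of neuroendocrine cells, fell from 14.5 ± 11.9 to 1.34 ± 1.205 CPM (-3.43 ± 0.65, and -4.06 without cS5Ahi 2), Slco5a1, a transporter family gene, from 14.1 ± 10.7 to 1.503 ± 1.09 CPM (-3.23 ± 0.63) and Zmynd15, a zinc finger gene, from 13.7 ± 6.88 to 1.64 ± 0.802 CPM (-3.07 ± 0.56).

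Of the 12 largest falls 10 were not called with the B cell covariate. The other two, Art2a and Trat1, kept nearly their size with the covariate (-2.63 and -2.46). Mreg, which acts in melanosome and lysosome transport, fell from 10.001 ± 4.91 to 1.04 ± 0.587 CPM, Adam23, a cell surface protein gene, from 28.5 ± 20.3 to 3.701 ± 2.203 CPM, and Apol7c, an apolipoprotein L gene of dendritic cells, from 79.7 ± 50.6 to 10.5 ± 5.49 CPM. Their fold changes of -3.25 ± 0.40, -2.94 ± 0.54 and -2.93 ± 0.52 became -1.56, -0.56 and -0.62 with the B cell covariate, without a call. The covariate itself differed between the genotypes, so such a fit takes up part of the genotype difference, and a lost call does not show where a transcript came from.

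Markers of other cells are given here beside these results. B cell markers summed to 237 to 511 CPM in WT and 195 to 265 CPM in cS5Ahi, and their mean log2 level ran from 3.32 to 4.90 and from 2.16 to 3.37. Cr2, a complement receptor of B cells, was at 13.5, 7.02, 16.2, 23.7 and 7.79 CPM in WT 1 to 5 and 1.72, 3.18, 4.68, 3.32 and 2.696 CPM in cS5Ahi 1 to 5, without overlap (-2.12 ± 0.32, adjusted p = 0.000119). Dendritic cell markers summed to 298 to 1060 CPM in WT and 123 to 296 CPM in cS5Ahi. The defining gene Flt3 went from 13.1 ± 7.23 to 2.12 ± 0.867 CPM, and H2-Ab1, an MHC class II chain of antigen-presenting cells, from 64.1 ± 28.2 to 16.1 ± 6.17 CPM. Of 4 tested plasma cell markers 2 were called higher, Jchain and Txndc5, whereas Mzb1 and Derl3 were not called. The median fold change of these markers was -0.011. Their mean log2 level overlapped, at 1.46 to 3.37 in WT and 2.59 to 3.2 in cS5Ahi. Jchain, which links immunoglobulin chains, had 15.7, 2.95, 11.7, 10.5 and 8.9001 CPM across WT and 41.3, 71.6, 63.3, 32.2 and 28.7 CPM across cS5Ahi, without overlap (2.27 ± 0.39, adjusted p = 0.000675). The plasma cell markers Sdc1 and Tnfrsf17 were too low to be tested. The part of these cells in the changes of other genes was not tested.

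T cell subsets other than CD8 also left marks. Gamma delta and innate-like T cell markers had 2 of 6 tested higher, the scavenger receptor genes Cd163l1 (1.62 ± 0.907 CPM (WT) and 9.25 ± 2.41 CPM (cS5Ahi), 2.53 ± 0.39) and 5830411N06Rik (2.07 ± 0.929 CPM (WT) and 17.2 ± 5.71 CPM (cS5Ahi), 3.08 ± 0.35), with adjusted p = 0.000151 and 5.63e-06. Il17a and Zbtb16 of that list were too low to be tested. Regulatory T cell markers summed to 64.9 to 83.6 CPM in WT and 33.3 to 52.4 CPM in cS5Ahi, with 2 of 5 lower. Cd4 was called lower (22.6 ± 34.9 CPM (WT) and 2.78 ± 1.49 CPM (cS5Ahi), adjusted p = 0.0339), a call that rested on WT 5. Without WT 5 the WT mean was 7.101 CPM and the fold change -1.34 in place of -3.04 ± 0.88 (adjusted p = 0.0741), and the call was also lost without any single cS5Ahi library (0.00177 to 0.691 over all settings tried). Salivary gland markers summed to 438 to 4490 CPM in WT and 37.3 to 591 CPM in cS5Ahi. The 1 neutrophil marker tested was not called, and 6 others of that list were too low to be tested. Stroma and endothelium markers had 2 of 6 lower, red cell markers 2 of 2 and immature thymocyte markers 2 of 3. Those of red cells and thymocytes were 1 each without WT 4 or cS5Ahi 1, 2 or 5, and those of red cells also without WT 1 or cS5Ahi 3 or 4.

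**Figure D5:**
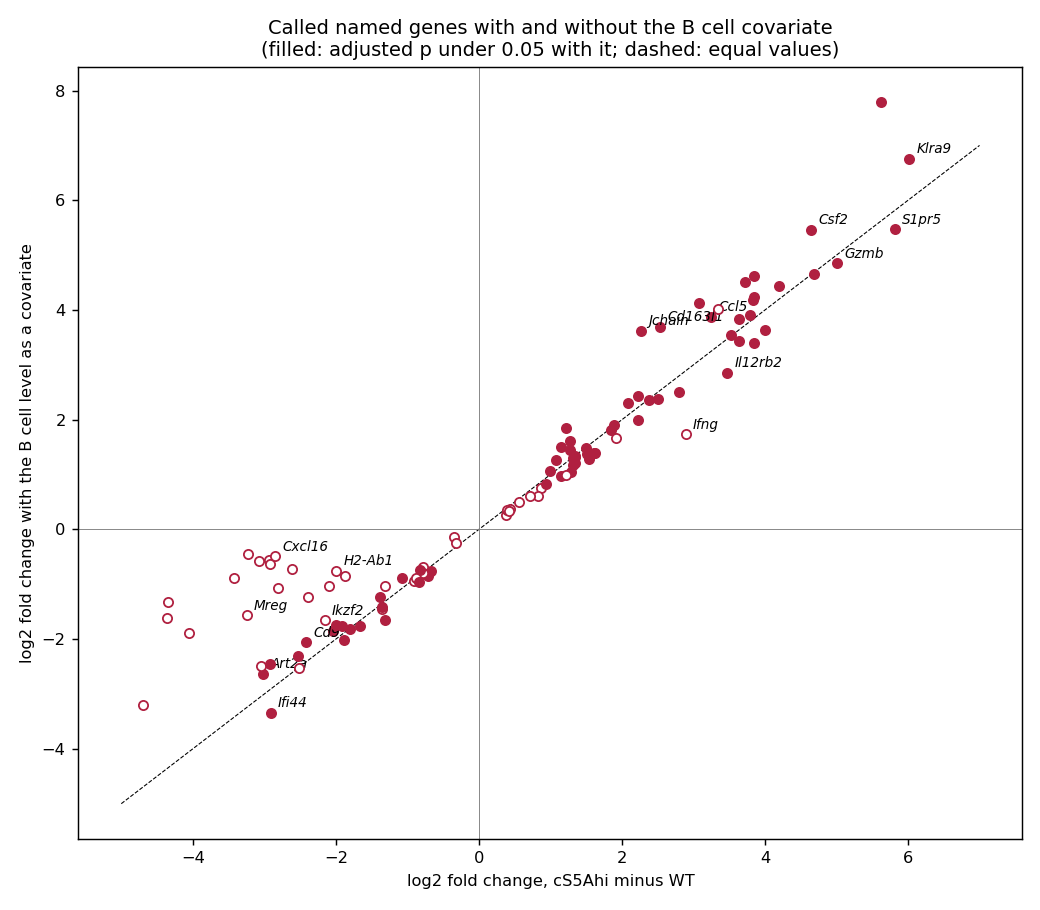
Log2 fold change of cS5Ahi against WT for the called named genes other than Stat5a and Cr2 (horizontal axis) against the same with the mean log2 level of the B cell markers as a covariate (vertical axis); filled points keep an adjusted p under 0.05 and the dashed line marks equal values. Gzmb, Klra9 and Il12rb2 lie near the line, while Cxcl16, H2-Ab1 and Mreg lie well above it, closer to 0.

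Some named genes moved more than others with the covariate. Of 109 named genes called with all libraries, 41 were not called with it, none of them in the reverse direction. Some of the 41 lost the call without a smaller fold change. With the covariate it went from -1.349 to -1.447 for Bcl6, from -2.512 to -2.535 for Ldhb and from -0.913 to -0.941 for Itga4. For P2rx4 it went from -0.785 to -0.794 and for Klrb1c from 3.346 to 4.011. Gzmb had a fold change of 4.85 with the covariate and 5.01 ± 0.32 without it, Klra9 6.76 and 6.01 ± 0.42, and Il2ra 2.30 and 2.09 ± 0.14. Flt3 went from -2.62 ± 0.40 to -0.72 and H2-Ab1 from -1.99 ± 0.29 to -0.75. Jchain went from 2.27 ± 0.39 to 3.62, and Csf2 from 4.64 ± 0.72 to 5.47.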

How the data were processed

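Whole-number counts of reads per gene, not normalised, were deposited for each library. The authors made them with cutadapt, TopHat 1.4.1 and HTSeq 0.6.1p1 on mm9, per the submitters' processing notes; whether counting used strand was not stated there. Of 21025 entries per file, 20661 were matched to symbols by RefSeq accession (GRCm38.p6). The 5 summary entries were left out, among them reads outside genes, 23.0 to 40.8% of a library. No 2 libraries of a group were duplicates (chi-square per degree of freedom 22.8 to 112 over 20 pairs).

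Genes were kept by filterByExpr at a minimum count of 10 and a minimum total of 15 (11979 genes), scaled with TMM factors and fitted with the robust quasi-likelihood model of edgeR 4.0.16 (R 4.3.3) over all 15 libraries, with the contrast cS5Ahi minus WT. Log2 CPM used a prior count of 2. Benjamini-Hochberg adjustment ran over all genes tested. Alternatives were DESeq2 1.42.0, voom in limma 3.58.1, glmTreat against a fold of 1.5, other scaling and filters, left-out libraries, a replicate block and the B cell level as a covariate. Simulated counts of 11821 genes used mean levels over all 15 libraries and the depths of these libraries. There 67, 66 and 65 genes were changed 1.5-fold, 2-fold and 4-fold. The test found 50.7, 72.7 and 86.2% of them, at 3.5% false calls. In the data 14.1% of genes were called, a far larger share than was changed in the simulation. Each simulated gene was also drawn on its own, without shifts shared between genes. The rates may therefore differ in the data.

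The members and gene lists were chosen with earlier results of these data known. Named genes are Stat5a and Stat5b, the 12 largest called rises and falls with at least 10 CPM and no overlap, up to 8 called members per list and direction by fold change, up to 4 uncalled members of highest CPM, and members of lists with 5 or fewer calls; not all of these are reported here. Members of near-identical families are uncertain, since shared reads may have been lost.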

Additional observations from a re-analysis of the deposited data

Results flagged for a closer look

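Named genes were searched for a library far from the other 4 of its group, by the gap to its nearest neighbour over the whole range of the group. Of 238 gene and group pairs examined, 12 passed the limit of 0.71 for 5 libraries; chance flags about 1 in 20 such groups.

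WT 5 stood apart in 4 genes. It held 95.0 CPM of Bcl6 against 34.1 to 47.2 CPM in the other WT libraries, 75.3 CPM of Cnn3 against 51.3 to 53.3 CPM, 37.0 CPM of Ldhb against 5.65 to 10.1 CPM and 84.7 CPM of Cd4 against 1.08 to 12.5 CPM. WT 2 had 234 CPM of Itgae, against 172 to 187 CPM, and 90.6 CPM of Itgb1, against 74.8 to 78.3 CPM. Among cS5Ahi libraries, cS5Ahi 2 had 21.0 CPM of Cnn3 against 14.8 to 15.2 CPM, and cS5Ahi 3 had 46.9 CPM of Tmem37 against 24.2 to 30.7 CPM. WT 4 had 59.3 CPM of Dcpp1, against 3.91 to 11.7 CPM, and 47.4 CPM of Klk1, against 4.45 to 9.34 CPM. cS5Ahi 4 had 2.32 CPM of Wfdc12, against 0.307 to 0.885 CPM, and cS5Ahi 3 had 86.7 CPM of Slc29a1, against 67.8 to 71.8 CPM. Each of these genes other than Cd4, Dcpp1 and Slc29a1 kept its call without the library named.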

How the results depend on the processing

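The direction and call of Stat5a held under all alternatives (fold change 2.44 to 2.62, leaving out single libraries 2.45 to 2.62). The number of called genes, 1692 with 824 higher and 868 lower, was within 1.5 times of these values under other scaling factors, other filters, DESeq2, voom, the fit on 10 libraries and WT of lane 3 alone. It was 287 (202 higher, 85 lower) with the B cell level as a covariate, 281 of them also among the 1692, and 602 (265 and 337) against a fold of 1.5, which asks for a larger change. Without WT 3, WT 4 and cS5Ahi 4 it was 1081 (541 and 540). Leaving out 1 library at a time gave 1247 to 1905 called, 638 to 960 higher and 609 to 981 lower. With the replicate number as a block on 10 libraries it was 980 (507 and 473). Libraries of equal number shared a correlation of deviations of -0.164 to 0.187, and 0 of 10 correlated best with their own number. These values gave no sign that equal numbers mark pairs, but they cannot exclude a small shared effect. Calls of Adam23, Apol7c and Ptpn2 were among the 9 named ones lost with the block. DESeq2 called 2127 genes and voom 1404.

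Of 109 named called genes 41 lost their call with the covariate, 22 against a fold of 1.5 and 2 to 8 without a single library, and 0 reversed. Uncalled genes changed sign in places, with no call there. With the covariate the fold change was 0.036 for Cd3e, -0.007 for Cd8a, -0.032 for Il7r and 0.004 for Tcf7. That of Ncr1 moved further, from -1.845 to 0.932 with the covariate. Without WT 3 and WT 4 it was -0.005 for Cd8a and -0.007 for Il2rg, and without cS5Ahi 4 as well it was -0.045 for Il2rg. With library size as the sole scaling it was -0.026 for Cd8a. The cause of these changes was not tested.

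Depth limits transcripts near 0, where a count of 0 in WT allows 0.112 to 0.238 CPM. Genes that change 1.5-fold were recovered in 50.7% of cases in simulated counts, so an uncalled gene is not shown to be equal.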
